A study of Mus musculus with 12 samples.

Results

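The BCL2 family decides whether a cell commits to apoptosis through its mitochondria. Here 10 of its genes were followed, Bcl2, Bcl2l1, Bax, Bak1, Bcl2l11, Bbc3, Pmaip1, Bmf, Bid and Bad, chosen by name and not by any measured value. All 10 were among the 54658 genes counted, and all 10 passed the filter on low counts that left 21456 genes for testing. RNA sequencing covered 9 mammary tumours of genotype Trp53R245W/+, which carry a missense change in 1 allele of the p53 gene and which the series describes as driven by that somatic change, and 3 preparations of epithelium enriched from wild-type mammary glands of the same cohort. The strain was a C57BL/6J X BALB/cJ F1 hybrid and the mice were female. The labels give no age, no Cre driver and no statement on whether each library came from a separate mouse, so the p-values measure the spread between these libraries. Genotype, tissue and the prefix of the library titles all followed the group, and their effects cannot be told apart. Tumours are called by their label numbers 1, 4, 5, 14, 17, 20, 21, 24 and 27, and epithelium libraries by 1, 2 and 3.

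The family has 3 kinds of members. BCL2 and BCL-XL (from Bcl2l1) hold apoptosis back by binding the other members, BAX and BAK (from Bak1) are the effectors that open the outer mitochondrial membrane and let cytochrome c out, and the BH3-only proteins carry stress signals to both. Of the BH3-only members, PUMA (Bbc3) and NOXA (Pmaip1) are transcribed under p53, as is Bax, while BIM (Bcl2l11), BMF, BID and BAD answer to growth factor loss, detachment, death receptors and survival kinases. In the mammary gland the family is known for clearing the lumen of ducts and for the loss of milk-producing cells at weaning, and many family proteins are also controlled after translation, which RNA does not show.

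Library totals ran from 19695318 to 33600076 counts in genes. Values are counts per 1000000 (CPM) after each total was multiplied by a scaling factor (trimmed mean of M values), 0.56 for tumour 4, 0.90 to 1.102 for the other 8 tumours and 1.16 to 1.19 for epithelium. On this scale a count of 3, the limit a count of 0 allows, stood at 0.274 CPM in tumour 4 and at 0.0987 to 0.127 CPM in the other 11 libraries. Tumour 4 was a library of another composition: 52.0% of its alignments were not unique, against 17.1% to 27.2% in the other 8 tumours and 8.59% to 12% in epithelium, and the small nuclear RNA Rn7sk made up 22.6% of its gene counts, against 1.52% to 5.26% in the other 11 libraries. Alignments outside genes separated the groups, with 8.08% to 32.3% in tumours and 39.9% to 41.5% in epithelium, and the part of this in the comparisons was not tested. Trp53 itself averaged 48.5 ± 19.7 CPM over tumours and 43.8 ± 2.00 CPM over epithelium (SD, n = 9 and 3), and gene counts do not show which allele is expressed. Epithelial markers were present in both groups: the luminal marker list, among it Epcam and Krt8, summed to between 1116 and 5755 CPM in tumours and to between 1814 and 2819 CPM in epithelium. Within this list of 6, 2 rose in tumours by the edgeR test described below and 0 fell. These were Epcam (log2 fold change 1.75, adjusted p = 0.0233) and Cdh1 (1.54, adjusted p = 0.0465). Lymphocyte markers separated the groups: the 6 T cell markers summed to 2.33 to 25.5 CPM in tumours and to 318 to 355 CPM in epithelium, and the 6 B cell markers to 4.19 to 70.6 CPM in tumours and to 589 to 794 CPM in epithelium. All 12 fell in tumours by the edgeR test described below and none was at 0 in every tumour. The 6 basal markers summed to 1780 and 3390 CPM in tumours 20 and 27, to 134 to 443 CPM in the other 7 tumours and to 1050 to 1476 CPM in epithelium. Among tumours, Krt5, Trp63, Acta2 and Myh11 were highest in tumours 20 and 27. Krt14 was highest in tumour 5 (278 CPM) and Oxtr in tumour 14 (195 CPM), so the 2 tumours were not high in every basal marker. The 6 fibroblast markers summed to 31652 CPM in tumour 21, to 1273 to 5592 CPM in the other 8 tumours and to 3700 to 5643 CPM in epithelium. Of 6 endothelial markers 3 fell, and of 6 macrophage markers 2 rose, C1qa and C1qb. In bulk tissue, fewer cells of a type and less RNA per cell cannot be told apart, and since several BCL2 family genes are expressed in lymphocytes, the part of these markers in the family's differences was not tested.

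One of the 10 members, the effector gene Bak1, passed the test between tumours and epithelium. It was higher in tumours by edgeR's quasi-likelihood test, with p-values adjusted after Benjamini and Hochberg across the 21456 genes and a threshold of 0.05. No member was called lower, where 8.89% of all genes tested were called higher and 11.4% lower. At an unadjusted p under 0.05, 3 members were higher and 1 was lower. The share of all genes at this unadjusted threshold is not given here, so these counts cannot be set against it. DESeq2 called 4 members, Bak1, Bad and Bid higher and Pmaip1 lower, where it called 25.5% of its genes, and limma-voom called 6, adding Bcl2l1 and Bbc3 as higher, where it called 49.6%. The log2 fold change of tumour over epithelium lay above 0 in 7 of the 10 members and in 12108 of the 21456 genes tested. Its median was 0.92 over the members and 0.17 over all genes tested. On plain library totals, with no scaling factors, these medians were 0.61 and -0.12, and 3 members were called, Bak1 and Bad higher and Pmaip1 lower, among 1076 genes called higher and 2914 lower, against 1908 and 2438 with scaling. Every tumour lay above every epithelium library in 2 members, Bak1 and Bad, and below it in 1, Pmaip1; across all genes tested this held for 10.2% above and 14.1% below. With plain library totals it held for Bad and Pmaip1 and not for Bak1, and the shares over all genes on that scale are not given here. A single call higher among the 10 members is near the share over all genes.

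**Figure D1:**
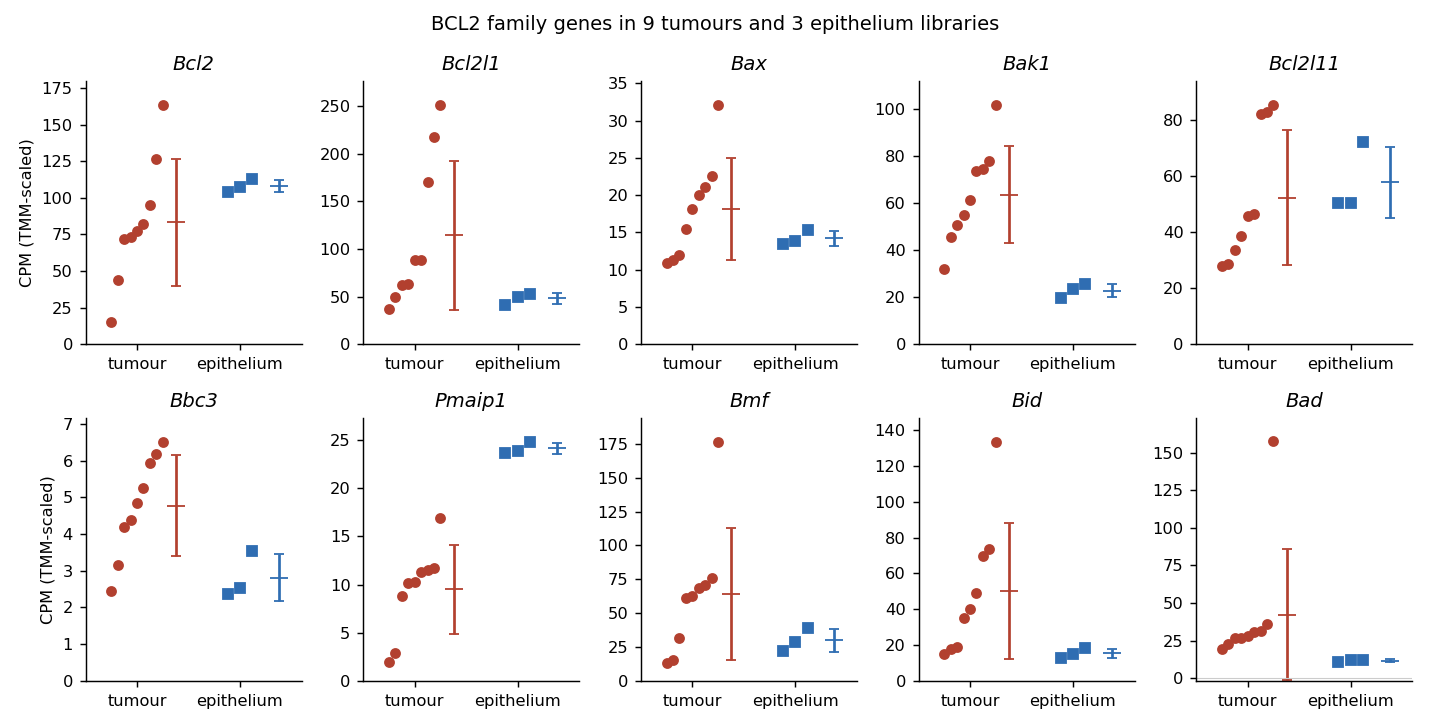
CPM of the 10 members in each tumour (red circles, 9) and each epithelium library (blue squares, 3), sorted by value, with mean and SD beside the points and a separate vertical scale per gene. Tumours and epithelium do not overlap in Bak1, Bad and Pmaip1 (on plain library totals Bak1 overlaps), and single tumours reach far above the rest in Bad (157 CPM), Bid (134 CPM) and Bmf (177 CPM).

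The effectors differed from each other in the comparison. Bak1 (chromosome 17, 27019810 to 27029009, minus strand, GRCm38) had 32.0 CPM in the lowest tumour, a median of 61.3 CPM and 102 CPM in the highest, against 23.4, 19.6 and 25.4 CPM in epithelium libraries 1, 2 and 3. The lowest tumour, number 20, was thus still above the highest epithelium library. Bak1 averaged 63.5 ± 20.7 CPM over tumours and 22.8 ± 2.94 CPM over epithelium (SD, n = 9 and 3), and its log2 fold change was 1.48 (SE 0.33, edgeR adjusted p = 0.00821). The call held in 19 of 20 alternative fits and was lost without epithelium library 2 (log2 fold change 1.38, adjusted p = 0.0584). On plain library totals Bak1 passed with 1.19 (adjusted p = 0.0398), but tumour 4, at 25.4 CPM, then lay within epithelium, at 23.2 to 29.4 CPM. Bax (chromosome 7, 45461697 to 45466898, minus strand) ran from 10.9 CPM in tumour 21 over a median of 18.1 CPM to 32.1 CPM in tumour 4, against 13.9, 13.4 and 15.4 CPM in epithelium. The groups overlapped, with 6 tumours above and 3 below all epithelium libraries, and the log2 fold change of 0.35 (SE 0.35) missed the threshold (edgeR adjusted p = 0.490) and was -0.0029 on plain library totals. Part of Bak1's exons, 614 bases, lies opposite to Ggnbp1, which averaged 8.24 ± 6.62 CPM over tumours and 3.52 ± 0.18 CPM over epithelium. The libraries mark strand, but the strand setting of the counting is not given in the sources used here, so reads from such a pair may not be separated.

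The promoters of both effectors are shown because 1 of these genes was called and the other was not. Each window runs from 250 bases before to 50 after the RefSeq start (GRCm38.p6, chr17:27028578-27028877 for Bak1 and chr7:45466849-45467148 for Bax, both minus strand, printed 5′ to 3′). Capitals mark matches on either strand to 5 motifs: the p53 half-site, the E2F sites TTTGGCGC and TTTCCCGC, the GC box GGGCGG, the E-box CACGTG and the CCAAT box.
Bak1: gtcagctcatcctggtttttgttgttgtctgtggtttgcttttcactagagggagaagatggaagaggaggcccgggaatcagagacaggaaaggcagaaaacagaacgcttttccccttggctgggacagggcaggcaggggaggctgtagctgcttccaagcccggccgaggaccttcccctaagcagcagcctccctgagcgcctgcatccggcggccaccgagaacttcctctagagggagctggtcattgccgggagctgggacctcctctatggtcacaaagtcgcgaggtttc
Bax: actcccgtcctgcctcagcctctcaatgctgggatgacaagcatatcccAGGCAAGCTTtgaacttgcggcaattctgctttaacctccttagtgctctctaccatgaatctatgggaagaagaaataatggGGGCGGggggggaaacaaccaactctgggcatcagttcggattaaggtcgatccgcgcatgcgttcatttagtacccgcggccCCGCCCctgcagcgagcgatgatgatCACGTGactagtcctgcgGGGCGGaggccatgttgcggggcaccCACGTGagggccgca

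The Bax window held 1 p53 half-site, 3 GC boxes and 2 E-boxes, none overlapping another, and the Bak1 window held no match to any of the 5 motifs. Of 32851 RefSeq promoter windows of the same length, 8.36% held a p53 half-site, 1.57% one of the E2F sites, 35.7% a GC box, 7.15% an E-box and 37.4% a CCAAT box. RefSeq windows of 9 of the 10 members were searched, 17 windows in all. Pmaip1, on chromosome 18, was left out of the search, so its motifs are not known here. Among these 17 windows, 10 held a GC box (from 7 members) and 6 a CCAAT box (from 4 members). A p53 half-site was found in 2 windows (Bax and Bmf), an E-box in 2 (Bax and Bbc3) and an E2F site in none. The shares above are per window, so the window counts and not the member counts compare with them. A match is a run of letters and does not show that a factor binds there, and no match says that these letters are absent from this window.

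Neither anti-apoptotic member passed the test, and they lay on opposite sides of 0. Bcl2l1 (chromosome 2, 152780668 to 152831728) ran from 37.1 CPM in tumour 20 over a median of 88.1 CPM to 251 CPM in tumour 5, against 49.6, 53.2 and 41.7 CPM in epithelium. Tumours 1, 5 and 14, at 217, 251 and 171 CPM, formed the upper end, 7 tumours were above all epithelium libraries and 1 was below. The log2 fold change was 1.24 (SE 0.58, edgeR adjusted p = 0.140). Bcl2 (chromosome 1, 106538178 to 106714274) ran from 15.4 CPM in tumour 24 over a median of 77.1 CPM to 164 CPM in tumour 17, against 108, 113 and 104 CPM in epithelium. In 7 tumours it was below all epithelium libraries and in tumours 4 and 17 above them, with a log2 fold change of -0.38 (SE 0.47, edgeR adjusted p = 0.591). Bcl2 is a survival gene of lymphocytes, whose markers were far lower in tumours, as given above.

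Among the BH3-only members, Pmaip1 was the one that stood lower in every tumour. NOXA, its product, binds MCL1 in particular. Pmaip1 (chromosome 18, 66458533 to 66465565) ran from 1.92 CPM in tumour 20 over a median of 10.2 CPM to 16.9 CPM in tumour 21, against 23.9, 24.8 and 23.7 CPM in epithelium. Tumours 20 and 27, at 1.92 and 2.87 CPM, were well below the other 7, which lay between 8.84 and 16.9 CPM. The log2 fold change was -1.34 (SE 0.48) and missed the threshold (edgeR adjusted p = 0.0640). In edgeR it passed without tumour 20 (-1.20, adjusted p = 0.0428), without tumour 21 (-1.49, adjusted p = 0.0406), under upper quartile scaling (-1.45, adjusted p = 0.0481) and on plain library totals (-1.65, adjusted p = 0.0302). Tumours 20 and 27 are the pair with the high basal marker sums, and tumour 21 the one with the high fibroblast sum; the part of these cells in Pmaip1 was not tested.

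The other p53-dependent BH3-only gene, Bbc3 (chromosome 7, 16308393 to 16318205), was the least abundant member. It ran from 2.45 CPM in tumour 21 over a median of 4.83 CPM to 6.52 CPM in tumour 1, against 2.53, 3.55 and 2.37 CPM in epithelium. With 7 tumours above all epithelium libraries and the other 2 within their range, the log2 fold change was 0.76 (SE 0.37, edgeR adjusted p = 0.155). Its coefficient of variation among tumours, 28.8%, was low: of the 3432 genes of like level, 9.29% had a lower one.

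Bad and Bid, which link the family to survival kinases and to death receptors, had the highest fold changes of the 10 members without a call. Bad (chromosome 19, 6941861 to 6951899), the BH3-only gene whose protein is held inactive when survival kinases phosphorylate it, ran from 19.5 CPM in tumour 21 over a median of 27.7 CPM to 157 CPM in tumour 4, against 12.02, 12.2 and 10.6 CPM in epithelium. Tumour 4 was far above the other 8, which ended at 35.7 CPM, and all 9 were above epithelium. The log2 fold change was 1.85 (SE 0.65, edgeR adjusted p = 0.0613); without tumour 4 it was 1.26 and passed (adjusted p = 0.00317), and without tumour 21, the tumour of the high fibroblast sum, it was 1.95 (adjusted p = 0.0492). On plain library totals Bad passed too (1.33, adjusted p = 0.0473), with 87.6 CPM in tumour 4 and 21.4 to 31.9 CPM in the other 8. Bid (chromosome 6, 120891930 to 120916853), which caspase-8 cuts into its active form, ran from 15.1 CPM in tumour 27 over a median of 40.4 CPM to 134 CPM in tumour 4, against 15.1, 12.8 and 18.1 CPM in epithelium. Tumours 5 and 27 stood at 17.6 and 15.1 CPM, within the range of epithelium, and the other 7 were above it. The log2 fold change was 1.72 (SE 0.65, edgeR adjusted p = 0.0777), while it was 1.84 without tumour 27 (adjusted p = 0.0483) and 1.40 without tumour 4 (adjusted p = 0.0800). Tumour 20, at 81.3 CPM, was above tumour 4, at 74.4 CPM, on plain library totals. Exons of Bad and Bid also lie opposite to other genes, 524 bases to Gpr137 and 628 bases to Bcl2l13, and these averaged 16.8 ± 4.91 and 73.0 ± 26.9 CPM over tumours, against 11.1 ± 1.63 and 42.0 ± 4.46 CPM over epithelium.

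Bmf and Bcl2l11, whose proteins are kept at the cytoskeleton by dynein light chains, overlapped between the groups. Bmf (chromosome 2, 118528757 to 118549687) ran from 13.0 CPM in tumour 20 over a median of 62.8 CPM to 177 CPM in tumour 17, against 28.8, 39.2 and 22.3 CPM in epithelium. Tumours 20 and 27, low in Pmaip1, were also the 2 tumours below epithelium here, at 13.0 and 15.2 CPM. They are the 2 with high basal marker sums, and the part of such cells in Bmf was not tested. The log2 fold change of Bmf was 1.09 (SE 0.66, edgeR adjusted p = 0.252). Bcl2l11 (chromosome 2, 128126038 to 128162547) ran from 27.9 CPM in tumour 4 over a median of 45.7 CPM to 85.3 CPM in tumour 1, against 50.5, 72.1 and 50.4 CPM in epithelium. Tumours 1, 5 and 17 lay above all epithelium libraries, at 82.0 to 85.3 CPM, and the other 6 below, so that the log2 fold change was -0.14 (SE 0.39, edgeR adjusted p = 0.821) and turned to 0.048 without epithelium library 2. No tumour lay above all epithelium libraries in Bcl2l11 on plain library totals, and tumour 17 alone did so in Bcl2.

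**Figure D2:**
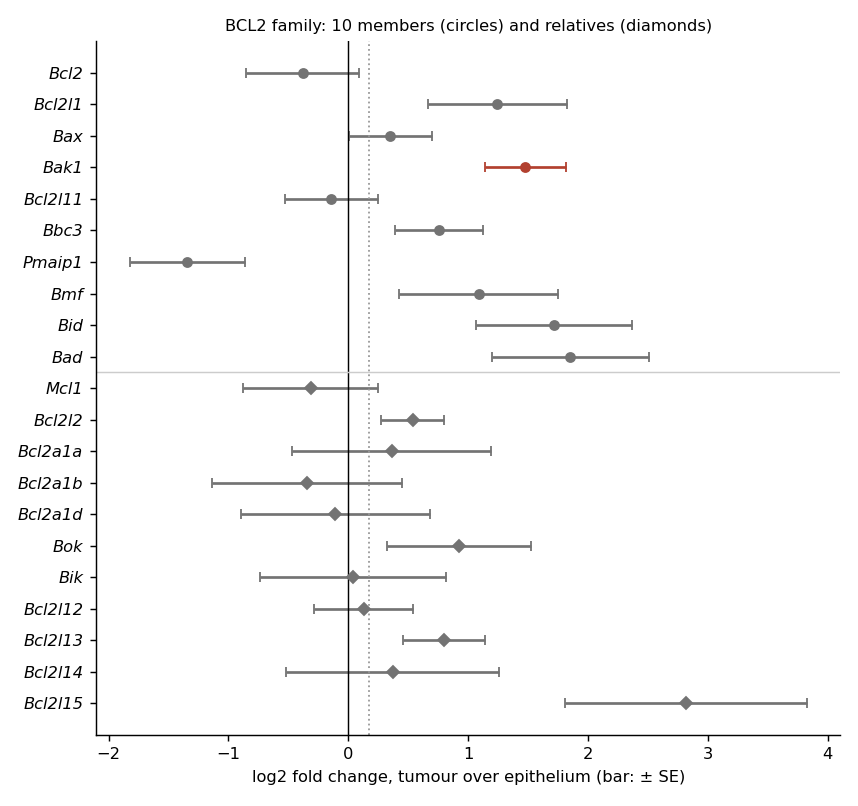
Log2 fold change of tumour over epithelium with its SE for the 10 members (circles, above the line) and the 11 tested relatives (diamonds, below it). Red marks a gene called higher, grey a gene not called, the solid line 0 and the dotted line the median of all genes tested, 0.17; Bak1 at 1.48 is the one called gene.

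Per length, the order of the members was not the same in the groups. With CPM divided by exonic length in units of 1000 bases (FPKM), the tumour means were led by Bak1 at 26.4 ± 8.59 and Bcl2l1 at 24.9 ± 17.1 FPKM, followed by Bad at 16.4 ± 17.01, Bid at 14.2 ± 10.7, Bmf at 12.2 ± 9.26 and Bax at 11.5 ± 4.33 FPKM. Neighbours in this order differed by less than the larger of their SD. Bcl2 at 9.08, Bcl2l11 at 6.52, Pmaip1 at 3.48 and Bbc3 at 2.24 FPKM came last. In epithelium the leading members were Bcl2 at 11.8 ± 0.47, Bcl2l1 at 10.5 ± 1.29, Bak1 at 9.46 ± 1.22, Bax at 9.03 ± 0.65 and Pmaip1 at 8.83 ± 0.22 FPKM. From Bcl2l1 to Pmaip1, neighbours differed by less than the larger of their SD. There Bad, at 4.54 ± 0.34, and Bid, at 4.32 ± 0.75 FPKM, stood in the lower part of the order, above Bbc3 at 1.32 ± 0.30 FPKM. Among the BH3-only members, Pmaip1 had the highest FPKM in all 3 epithelium libraries and in no tumour. Among tumours, Bmf led these members in 4, Bad in 3 and Bid in 2. In epithelium library 2 the lead of Pmaip1 was slight, at 25.5% of their summed FPKM against 25.2% for Bcl2l11. Relatives outside the members were left out of this order. One of them, Bik, stood at 13.3 FPKM in tumour 27, where Bad led with 40.4% of a sum of 22.2 FPKM.

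Ratios within a library do not depend on the scaling between libraries. The log2 ratio of Bcl2l1 to Bcl2 in FPKM ran from -0.02 in tumour 4 to 2.70 in tumour 5 with a median of 0.89, against -0.12, -0.09 and -0.32 in epithelium libraries 1, 2 and 3. All 9 tumours were above all epithelium libraries, though tumour 4 by a small margin. The log2 ratio of Bak1 to Bax ran from -0.10 in tumour 4 to 2.11 in tumour 1 with a median of 1.27, against 0.14, -0.07 and 0.11 in epithelium, with 8 tumours above and tumour 4 below. The log2 ratio of Bax to Bcl2 spread on both sides of epithelium, from -1.23 in tumour 17 to 3.09 in tumour 24, against -0.41, -0.53 and -0.22. No test was made on these ratios, which were chosen with the members' values known.

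Set beside Bcl2, Mcl1 and Bcl2l2 (which encodes BCL-W), Bcl2l1 took a varying share of the summed RNA of these 4 anti-apoptotic genes. The relatives Bcl2a1a, Bcl2a1b and Bcl2a1d were left out, so the shares are not shares of the whole family. They stood at 17.7, 3.24 and 25.8 FPKM in tumour 4, and averaged 3.91, 1.35 and 6.63 FPKM over epithelium. Mcl1 had the highest FPKM of the 4 genes in all 12 libraries, with 52.7% to 89.4% of their sum in tumours and 80.9% to 82.9% in epithelium. Bcl2l1 made up 34.4%, 36.3% and 31.4% in tumours 1, 5 and 14, between 4.54% and 17.5% in the other 6 tumours, and 7.33%, 6.74% and 6.52% in epithelium. Bcl2 took 14.6% in tumour 4 and 2.30% in tumour 24, against 7.15% to 8.16% in epithelium. The summed level was 73.2 to 151 FPKM in 8 tumours and 423 FPKM in tumour 17, against 148, 172 and 139 FPKM in epithelium. In that tumour Mcl1 alone reached 1293 CPM.

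**Figure D3:**
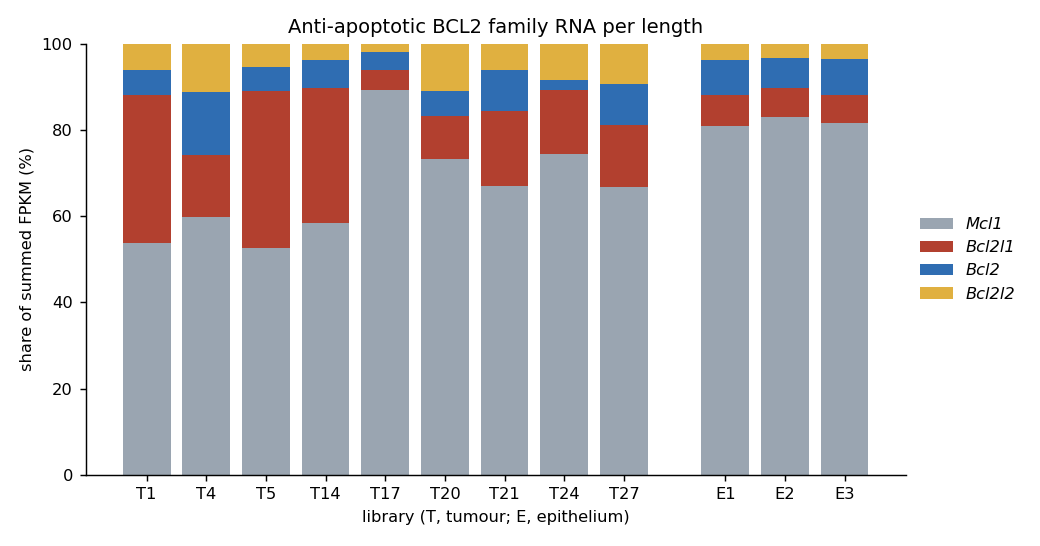
Share of Mcl1, Bcl2l1, Bcl2 and Bcl2l2 in their summed FPKM, in percent, in each tumour (T, with its number) and each epithelium library (E). Bcl2l1 (red) is widest in tumours 1, 5 and 14, at 31.4% to 36.3%, and Mcl1 (grey) fills 89.4% in tumour 17, against 80.9% to 82.9% in the epithelium libraries.

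Tumour by tumour, the members varied along different lines. With scaling, the highest level was 13.6 times the lowest for Bmf, 10.6 times for Bcl2 and 8.85 times for Bid. It was 8.81 times for Pmaip1, 8.08 times for Bad and 6.78 times for Bcl2l1. Smaller ratios were those of Bak1 (3.18 times), Bcl2l11 (3.06 times), Bax (2.96 times) and Bbc3 (2.66 times). The place of Bcl2l11 depended on the scaling. Without it, tumour 4 was lowest in Bcl2l11 (15.5 CPM) and tumour 17 highest (82.1 CPM). This ratio then exceeded that of Bid, whose extremes were 15.7 CPM (tumour 27) and 81.3 CPM (tumour 20). It also exceeded that of Bad, whose extremes were 21.4 CPM (tumour 21) and 87.6 CPM (tumour 4). Bak1, Bax and Bbc3 kept the smallest ratios. With scaling, tumour 20 was lowest of the 9 in Bcl2l1, Bak1, Pmaip1 and Bmf, and tumour 4 highest in Bax, Bid and Bad. Tumour 4 is also the library with the Rn7sk share of 22.6%, the high share of alignments that were not unique and the scaling factor of 0.56. On plain library totals it was highest in Bad alone, while tumour 24 led Bax, at 22.6 CPM against 17.9 CPM in tumour 4, and tumour 20 led Bid. Tumour 4 and not tumour 20 was then lowest in Bcl2l1 (34.9 against 40.9 CPM) and in Bak1 (25.4 against 35.25 CPM). In Pmaip1 and Bmf tumour 20 stayed lowest. Tumours 1, 5 and 17 were the highest in Bcl2l11, and tumours 1, 5 and 14 in Bcl2l1.

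**Figure D4:**
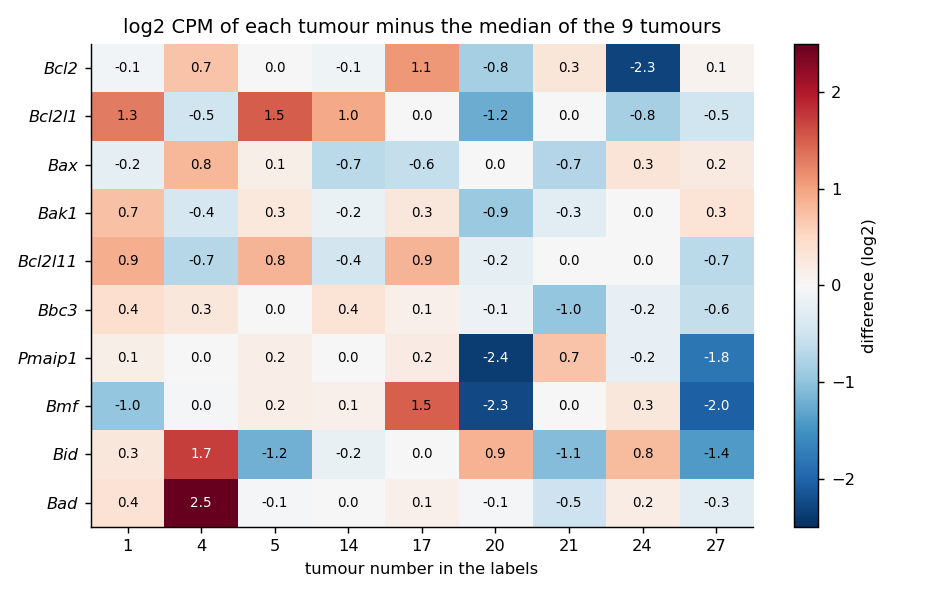
Log2 CPM of each member (rows) in each tumour (columns, label numbers) minus the median of the 9 tumours, red above and blue below. Bad in tumour 4 (2.5) is the highest cell, and Pmaip1 and Bmf share their lowest cells, in tumours 20 (-2.4 and -2.3) and 27 (-1.8 and -2.0).

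No pair of members could be shown to vary together across the 9 tumours. Of 45 pairs, none passed an adjusted p of 0.05 for Spearman's rho or Pearson's r by exact permutation over all 362880 pairings, while 1 pair by rho and 3 by r had an unadjusted p under 0.05. Bid and Bad gave the smallest p for r, with r = 0.74 and rho = 0.67 (exact permutation p = 0.0039 and 0.0589, adjusted p = 0.176 and 0.666, two-sided, n = 9) and r = 0.61 without the 2 tumours farthest from the median of Bid. Bbc3 and Bad gave the largest rho, 0.73, with r = 0.53 (exact permutation p = 0.0311 and 0.139, adjusted p = 0.666 and 0.696), with r = 0.37 without tumours 21 and 27 and r = 0.86 without tumour 4. For Pmaip1 and Bmf, r was 0.82 and rho 0.53 (exact permutation p = 0.0128 and 0.148, adjusted p = 0.288 and 0.666). Without tumours 20 and 27 r was -0.03, so that this relation rests on those 2 tumours, the ones with high basal marker sums. Among 16 further relations, of each member with a score of 16 leukocyte, T cell and B cell genes and of Bax, Bbc3 and Pmaip1 with the p53 targets Cdkn1a and Mdm2, none passed either (smallest adjusted p = 0.604 for r and 0.771 for rho, exact permutation) and none had an unadjusted p under 0.05. Bcl2 and the leukocyte score gave r = 0.61 and rho = 0.57 (exact permutation p = 0.0755 and 0.121, adjusted p = 0.604 and 0.771), and r = 0.43 without tumours 21 and 24. Mdm2 and Pmaip1 gave r = -0.63 and rho = -0.47 (exact permutation p = 0.0698 and 0.213, adjusted p = 0.604 and 0.771), and r = -0.67 without tumours 4 and 17. Without tumour 4, r of the leukocyte score was -0.81 in place of -0.42 with Bax and -0.71 in place of 0.06 with Bad, and still no rho in this family passed. 

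In single tumours, the genes around some members stood apart together with them. For each gene, the 20 nearest expressed genes on its chromosome, 10 on each side, were compared with their own medians over the 9 tumours. Around Bak1, from 26505590 to 27851968 on chromosome 17, the median neighbour stood at -0.96 (log2) in tumour 20 and at 0.67 in tumour 1, and Bak1 itself at -0.94 and 0.73 in these tumours. Bcl2l1 stood at 1.3, 1.51 and 0.95 in tumours 1, 5 and 14, where its median neighbour was at 0.18, 0.41 and 0.00. Around Mcl1 the median neighbour was at 2.40 in tumour 17, and Mcl1 at 2.45. Bad and Bid in tumour 4, at 2.5 and 1.72, had median neighbours at -0.07 and -0.07, and Bmf in tumour 17, at 1.49, had one at -0.01. The number of gene copies was not measured, and this comparison of neighbours was chosen after the values of the members were seen.

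**Figure D5:**
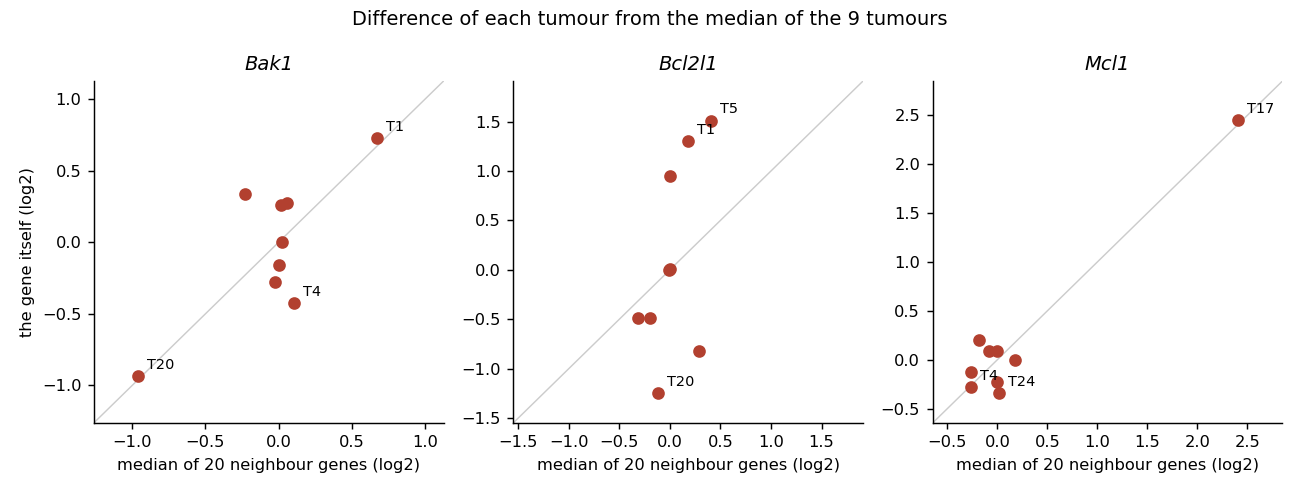
For Bak1, Bcl2l1 and Mcl1, the difference of each tumour from the median of the 9 tumours (log2 CPM) in the gene itself (vertical) against the median of its 20 nearest expressed genes (horizontal), with the line of equal values and the 3 largest differences of the gene named. Bak1 in tumours 1 and 20 and Mcl1 in tumour 17 lie near the line, while Bcl2l1 in tumours 1 and 5 lies far above it.

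Of 13 other genes of the family, 11 were tested and none was called by edgeR, where 20.3% of all genes tested were called. At an unadjusted p under 0.05, 2 were higher, Bcl2l13 and Bcl2l15, with no share over all genes given at that threshold. DESeq2 called 2, Bcl2l15 higher and Mcl1 lower (log2 fold change -0.88, DESeq2 adjusted p = 3.4e-06), where it called 25.5% of its genes. It ran with its defaults, which can replace a single outlying count in a group of this size. Whether the count of Mcl1 in tumour 17 was replaced was not tested. By limma-voom 3 were called higher, Bcl2l13, Bcl2l15 and Bcl2l2, where it called 49.6%. Mcl1, the survival protein that NOXA binds, ran from 186 CPM in tumour 24 over a median of 237 CPM to 1293 CPM in tumour 17, against 408, 488 and 390 CPM in epithelium. In the other 8 tumours it was below all epithelium libraries, and the log2 fold change of -0.31 (SE 0.56, edgeR adjusted p = 0.721) became -0.92 without tumour 17 (adjusted p = 0.00919). Bcl2l13, a mitochondrial BCL2-like gene, had a log2 fold change of 0.80 (SE 0.34, edgeR adjusted p = 0.112). Bcl2l15 had the largest of the 11, 2.82 (SE 1.01, edgeR adjusted p = 0.0645), at low levels. It stood at 0.14, 0.52 and 0.61 CPM in epithelium libraries 1, 2 and 3, and library 1 was near the limit of a count of 0. In tumours Bcl2l15 ran from 0.74 CPM in tumour 20 over a median of 1.74 CPM to 10.8 CPM in tumour 14. The median log2 fold change over the 11 was 0.36 (-0.11 on plain library totals). Bcl2a1a, Bcl2a1b and Bcl2a1d are near-identical copies whose reads can be split, so that their single values are uncertain.

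Downstream of BAX and BAK, 2 of 18 genes of the execution of apoptosis rose and 2 fell, with a median log2 fold change of 0.14 (-0.16 on plain library totals), where 20.3% of all genes tested were called. Both genes that fell inhibit cell death: Birc3 averaged 42.9 ± 15.6 CPM over tumours and 195 ± 6.33 CPM over epithelium (log2 fold change -2.18, SE 0.29, edgeR adjusted p = 0.000255), and Birc2 fell by 1.57 on the log2 scale (adjusted p = 0.00112). Birc3 is also abundant in lymphocytes. Birc5, which encodes survivin and serves mitosis, rose (45.5 ± 23.6 CPM over tumours and 3.68 ± 0.92 CPM over epithelium, log2 fold change 3.63, SE 0.58, adjusted p = 0.000963). Aifm1, which encodes a flavoprotein released from mitochondria in apoptosis, rose by 0.84 (adjusted p = 0.0482), and this call was lost without tumour 5, 14, 17, 20, 24 or 27 or any 1 epithelium library (adjusted p 0.0578 to 0.190) and under 5 other settings of scaling or filter (0.0539 to 0.287). Without tumour 21, the tumour with the high fibroblast sum, there were 7 called genes in place of 4. The apoptosome genes Apaf1, Cycs and Casp9 were not called by edgeR, with log2 fold changes of -0.52, 1.48 and -0.15 (adjusted p = 0.308, 0.0613 and 0.724).

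Among the 9 death receptor genes upstream of BID, 1 fell and none rose, with a median log2 fold change of -0.68, where 11.4% of all genes tested were called lower, a share near 1 of 9. In this list, at an unadjusted p under 0.05 there were 4 lower and 0 higher, with no share over all genes given at that threshold. Fasl, the ligand made by T and NK cells, averaged 0.70 ± 0.70 CPM over tumours and 4.17 ± 0.80 CPM over epithelium (log2 fold change -2.60, SE 0.67, edgeR adjusted p = 0.0171), beside the T cell markers given above. Without epithelium library 1 or 2, Fasl was not called (adjusted p = 0.0635 and 0.0716) and the list held 0 calls; without tumour 1 or 4 it held 2, and on plain library totals 3. DESeq2 called 2 genes of the list and limma-voom 6, all lower, where these tools called 25.5% and 49.6% of their genes.

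Of 18 regulators and partners of the members, 2 rose and 2 fell, near the 20.3% called over all genes tested, with a median log2 fold change of 0.07 (-0.19 on plain library totals). E2f1, a cell cycle factor that can activate BH3-only genes, rose (15.8 ± 9.12 CPM over tumours and 1.73 ± 0.37 CPM over epithelium, log2 fold change 3.19, SE 0.62, edgeR adjusted p = 0.00347). Dynll2, the dynein light chain that holds BMF, rose by 1.41 (adjusted p = 0.0177). Foxo1, a FOXO factor that activates Bcl2l11, and Pim2, a kinase that phosphorylates BAD, fell by 1.08 and by 1.45 on the log2 scale (adjusted p = 0.0260 and 0.00707). Without any 1 epithelium library the calls of Dynll2 (adjusted p 0.0631 to 0.101) and Foxo1 (adjusted p 0.0802 to 0.109) were lost, leaving 2 in the list, and Dynll2 was also lost on plain library totals (0.0531). The p53 targets outside the family, Cdkn1a and Mdm2, were not called: Cdkn1a averaged 18.4 ± 17.6 CPM over tumours and 20.6 ± 1.55 CPM over epithelium (adjusted p = 0.896), and Mdm2 averaged 52.2 ± 13.0 CPM over tumours and 85.1 ± 1.48 CPM over epithelium (log2 fold change -0.70, adjusted p = 0.0548). Mdm2 passed without tumour 4, 20 or 27 (adjusted p = 0.0465, 0.0451 and 0.0413), in DESeq2 (0.0218) and limma-voom (0.00121), under relative log expression scaling (0.0486), upper quartile scaling (0.0307) and a stricter filter (0.0411), and on plain library totals (0.0485).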

How the data were processed

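The authors deposited raw counts per gene symbol for each library, with 5 summary counts that stayed out of library sizes and tests. Per the submitters' processing notes, GRCm38 was the build and TopHat2 2.1.1, HTSeq 0.11.0 and FastQC 0.11.8 were used. Annotation release and strand setting: not given in the sources used here. Of 54658 symbols, 54106 matched GENCODE M21, used for positions and exonic length. Counts were tested in R 4.3.3 with edgeR 4.0.16 (filterByExpr, trimmed mean of M values scaling, robust quasi-likelihood F test on the group; SE is the size of the log2 fold change divided by the root of F), with DESeq2 1.42.0 and limma-voom (limma 3.58.1) as alternatives, and the pipeline was tested on simulated data. CPM are counts over library totals multiplied by the scaling factors, and carry no prior count; CPM and an edgeR fit on plain totals were added after the data were seen; log2 CPM for relations and neighbours carry a prior count of 2, and neighbours needed a mean of 5 CPM. Counting error alone sets the limit of a count of 0. Replicates were compared by chi-square, whose lowest value per degree of freedom was 24.1, and none was a copy of another. The 10 members, the gene lists and the tests were chosen with earlier results of these data known. Named genes were the members, the called genes of each list or else its 2 most abundant, Trp53, Cdkn1a and Mdm2; the rest were named after their values were seen. Relations, promoters and figures used Python 3.11.15 with scipy 1.17.1, pandas 2.3.3, matplotlib 3.10.9 and numpy 2.4.6.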

Additional observations from a re-analysis of the deposited data

Results flagged for a closer look

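Dixon's test at its 95% critical value was applied to the CPM of 24 named genes in the 9 tumours. It marked a single tumour far above the others in 5 of them. Its rate of about 1 gene in 20 by chance holds for independent values with a normal distribution, which CPM need not have. The share marked over all genes is not given here, so the 5 cannot be read as an excess. Of the 5, 3 were members of the family. Bad stood at 157.5 CPM in tumour 4, with the next tumour at 35.7 CPM. Bid stood at 133.6 CPM in tumour 4, with the next at 73.8 CPM. Bmf stood at 176.7 CPM in tumour 17, with the next at 76.0 CPM. Mcl1 reached 1293 CPM in the same tumour 17, with the next at 272 CPM, and Cdkn1a 57.47 CPM in tumour 1, with the next at 31.1 CPM. On the log2 scale Bad and Mcl1 were marked and the other 3 were not, and on plain library totals Bmf, Bad and Mcl1 were marked and Bid and Cdkn1a were not.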

How the results depend on the processing

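Calls depended more on the tool than on the scaling. The count of members called was 1 in edgeR, 2 under upper quartile scaling, 4 in DESeq2, 6 in limma-voom and 0 to 3 when 1 library was left out. Over all genes, 4346 were called in edgeR, 7398 in DESeq2 and 10634 in limma-voom, with 3799 and 5006 higher in these tools and 5628 lower in limma-voom; leaving out 1 library gave 2005 to 5159 calls, 506 to 2486 higher and 1496 to 2753 lower, the lowest of each without an epithelium library. DESeq2 and limma-voom called 2 and 3 other family genes (0 to 1 with a library left out), 7 and 11 execution genes (3 to 7), and 2 and 6 death receptor genes (0 to 2), and limma-voom called 10 regulators (2 to 5 with a library left out). On plain library totals, an alternative chosen after seeing the data, there were 3 members, 3 death receptor genes and 1076 genes over all called higher, and Bax (-0.0029) and Trp53 (-0.10) changed sign in a median of all genes of -0.12. No relation across tumours passed under any alternative. On the log2 scale Dixon's test marked 1 member in place of 3. The log2 fold change of Bcl2l11 ran from -0.25 to 0.048 with a library left out, and was above 0 without epithelium library 2. In DESeq2 the log2 fold change of Mcl1 was -0.88, against -0.31 in edgeR and -0.92 in edgeR without tumour 17. For Bad it was 1.23 in DESeq2, against 1.85 in edgeR and 1.26 in edgeR without tumour 4. The causes were not tested. Depth did not limit the members, all above the level of 3 counts in every library. No paired analysis was possible because the groups differ in genotype and the labels pair no tumour with an epithelium library.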
